A study of Mus musculus with 12 samples.

Results

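The comparison described here set the livers of mice 1.5 h after an operation that removes 2/3 of the organ (partial hepatectomy, PH in the labels) against livers taken at 0 h. Its members are the 6 arrays that the labels place at 0 h or 1.5 h, 3 at each time, of 12 arrays in the series, and on them 31168 probes that passed a filter on dim signals: 19894 coding probes (88.3% of those on the array) and 11274 noncoding probes (76.6%). All mice were wild-type C57BL/6 males, 6 weeks old, with 3 mice per time point per the labels, and both groups are whole liver tissue. The 1.5 h livers came from mice that had the operation and the 0 h livers are the reference time; no sham-operated or unoperated mice collected at 1.5 h are among the 12 samples, so removal of liver mass cannot be told apart from anaesthesia, surgery or the time that passed. The RNA was labelled with Cy3 and hybridised to a 1-colour array with probes to long noncoding and protein-coding transcripts, and the study's stated question is how the former behave during liver regeneration; the remaining arrays are from 12 h and 24 h.

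In the first hours after hepatectomy, quiescent hepatocytes pass through what is called the priming phase. Immediate early genes, whose transcription needs no newly made protein, are switched on by preformed factors such as CREB, SRF, NF-kB and STAT3, and many of them encode transcription factors (the FOS, JUN and ATF proteins that pair as AP-1, the EGR and KLF zinc finger proteins, MYC and the NR4A receptors) or enzymes that end the signal, such as the DUSP phosphatases. Kupffer cells, the macrophages of the liver, release TNF and IL-6, which act on hepatocytes, and neutrophils enter the tissue; growth factors, among them HGF and the ligands of the EGF receptor, later carry the primed cells into DNA synthesis.

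The layout of the slides bears on every value below. Arrays with the same scan mark in the files are counted here as lying on the same slide. Per the scan marks in the files, the 3 arrays at 0 h and replicate 1 at 1.5 h lay on slide 1, and replicates 2 and 3 at 1.5 h lay on slide 2 with arrays of 12 h. Within slide 1, then, a single 1.5 h array can be set against all 3 arrays at 0 h, and that within-slide difference is given beside several results. On slide 2 a larger share of spots was called well above background by the scanner software (83.3% and 82.0% for the 1.5 h arrays, against 62.8% to 70.4% at 0 h and 68.2% for 1.5 h replicate 1), and so was a larger share of the array's own 200 negative control spots (36.5% and 37.5%, against 9% to 14.5% and 11%). The signal at the 75th percentile of each array, used for scaling, lay between 473.5 and 583.7 units on the 6 arrays, and no spot was saturated. The 24 h replicate 2 array had a scan mark of its own, counted as slide 4, and a 75th percentile of 6018 units. The mark alone does not show whether it lay on a separate slide. The array is in neither group, but its spread enters a model fitted to all arrays. Results are therefore given for the fit of all 12 arrays and for the same fit without that array (11 arrays); estimates of the difference are the same in both and their errors differ. A transcript is said to have risen or fallen where its adjusted p (limma, Benjamini-Hochberg over 31168 probes) was under 0.05 in at least the 11-array fit, and those that also passed with 12 arrays are named as such. With 3 mice a group, the number of arrays limits the precision, and a piece of whole liver cannot tell fewer cells of a type from less RNA per cell.

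In the fit of all 12 arrays 7 of 31168 probes passed, or 0.0225%, all higher at 1.5 h: Mt2, Nr4a1, Atf3, Cxcl2, S100a8, S100a9 and the noncoding transcript AK085884 (2001 probes, 6.42%, had an unadjusted p under 0.05). With 11 arrays 185 probes passed, these 7 among them. Of the 185, 158 were higher at 1.5 h (0.507% of the probes tested) and 27 lower (0.0866%). The higher probes comprised 105 coding probes, which named 95 genes, and 53 noncoding probes; the lower comprised 20 coding probes, which named 19 genes, and 7 noncoding probes. For each of the 185 the 3 arrays of a group lay entirely above or below those of the other, and the 1.5 h array on slide 1 moved the same way as the pair on slide 2. Such a separation was common in these data: 16.3% of all probes had every 1.5 h array above every 0 h array and 9.24% had every one below (14.7% and 11% of coding probes, 19.2% and 6.12% of noncoding probes). 53 of the 185 also passed when slide was a random block in the 11-array fit, and 5 when it was a fixed block in the fit of all 12, which leaves only the slide 1 arrays to inform the comparison.

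The calls rested on few arrays. In the fit of all 12, leaving out one 0 h array (replicate 1, 2 or 3) gave 1, 4 and 0 probes higher, and leaving out one 1.5 h array gave 5, 11 and 0. In the 11-array fit the omission of one 0 h array gave 8, 49 and 5 higher, and that of 1.5 h replicate 2 or 3 gave 55 and 3. Leaving out 1.5 h replicate 1, so that the groups no longer shared a slide, gave 6444 higher and 1371 lower. Cxcl2, S100a8 and S100a9 passed in each of the 6 versions of the 11-array fit that left out 1 more array. With normexp background correction, whose offset of 50 units draws dim values together, 7 probes passed in the 11-array fit (Mt2, Nr4a1, Atf3, Mt1, S100a8, S100a9 and Maff), so the other calls below were lost with it; its log2 difference stands beside a named call where the fold moved by over 1.5 times.

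**Figure D1:**
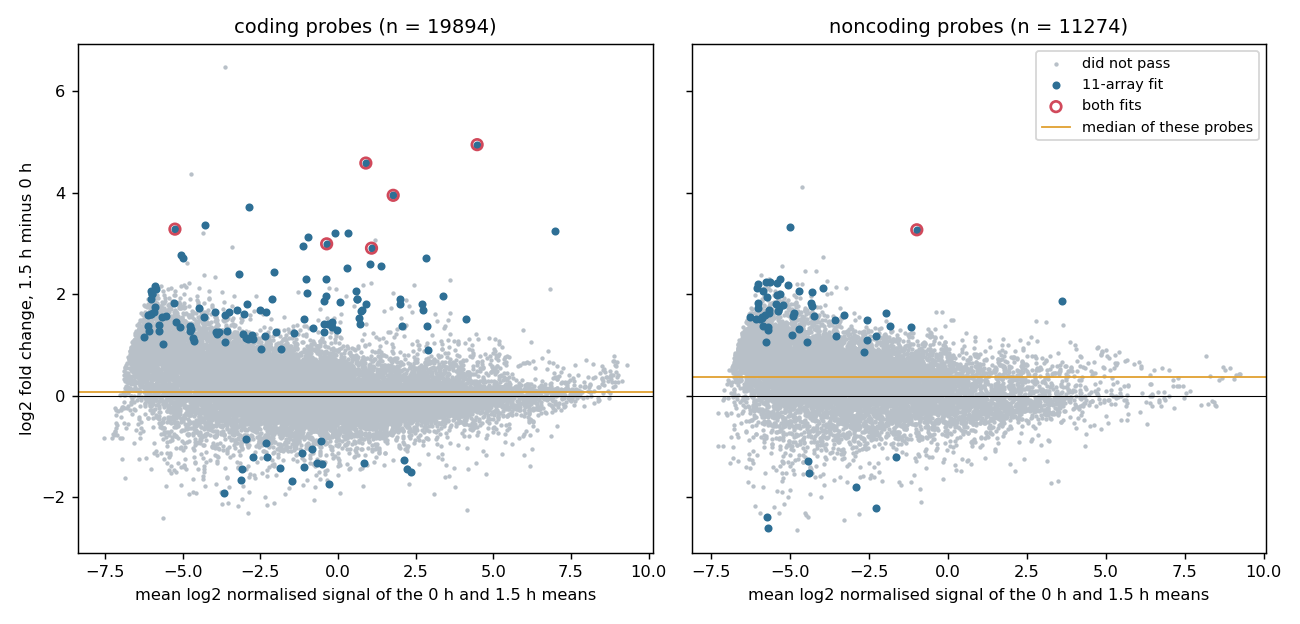
Log2 fold change (1.5 h minus 0 h, vertical axis) against the mean log2 normalised signal (horizontal axis) for 19894 coding and 11274 noncoding probes; each point is 1 probe, filled points passed in the 11-array fit and circled points in both fits. The 7 circled probes are all higher at 1.5 h, and dim probes, at the left, lie mostly above 0, more so among noncoding probes, whose median was 0.36 against 0.07 for coding probes.

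Metallothioneins, small cysteine-rich proteins that bind zinc and copper, held the largest rise among the probes that passed. Mt2 had log2 normalised signals (log2 of the processed signal minus the array's 75th percentile) of 1.54, 2.99 and 1.49 at 0 h and 7.20, 6.09 and 7.57 at 1.5 h. The lowest 1.5 h array, replicate 2, stood well above the highest 0 h array. The rise was 30.9-fold (log2 4.95 ± 0.58, standard error, adjusted p = 0.0237 in limma with 12 arrays; 0.0123 with 11), and it was log2 5.19 within slide 1. Mt1, its neighbour on chromosome 8, had 5.11, 5.77 and 5.18 at 0 h and 8.43, 8.19 and 9.16 at 1.5 h. These groups did not overlap either, and Mt1 rose 9.46-fold (log2 3.24 ± 0.35, limma adjusted p = 0.0123 with 11 arrays, 0.0856 with 12). Of the other 6 genes of metallothionein and zinc handling, none passed: the importer Slc39a14 had a log2 difference of 0.35, the metal-sensing factor Mtf1 that drives metallothionein transcription 0.27, and the exporters Slc30a1 and Slc30a10 -0.38 and -1.105. The list median was 0.29 against 0.17 for all probes, and 0.05 against -0.14 with normexp.

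The promoters of both genes are shown because metallothionein transcription is known to run through metal response elements. In each, the 250 bases before the start site (RefSeq, GRCm38.p6, plus strand) are printed with the core of that element, TGCACNC or TGCGCNC on either strand, in capitals.
Mt2 promoter, chr8:94172368-94172617: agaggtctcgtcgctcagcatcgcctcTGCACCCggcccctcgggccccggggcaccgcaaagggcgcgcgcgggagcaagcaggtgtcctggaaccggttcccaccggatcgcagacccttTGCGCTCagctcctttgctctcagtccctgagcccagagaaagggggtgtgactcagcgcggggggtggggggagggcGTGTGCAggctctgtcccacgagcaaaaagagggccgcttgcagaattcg
Mt1 promoter, chr8:94178839-94179088: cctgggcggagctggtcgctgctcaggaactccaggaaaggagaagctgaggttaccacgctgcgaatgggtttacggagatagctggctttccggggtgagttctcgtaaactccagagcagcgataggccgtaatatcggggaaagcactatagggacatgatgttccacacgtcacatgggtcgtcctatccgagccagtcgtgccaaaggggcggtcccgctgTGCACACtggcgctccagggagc
Within these 250 bases Mt2 held 3 matches and Mt1 held 1. Bases past the RefSeq start site or further upstream were not searched, so the counts leave out any element there. Of 32851 promoters of the same length in the RefSeq table, 21.41% held at least 1 match and 1.26% at least 3. A match describes the letters and not a bound site.

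The NR4A receptors are orphan nuclear receptors of the immediate early class. Nr4a1 (NUR77) had log2 signals of -0.30, -2.21 and -1.69 at 0 h and 4.08, 2.39 and 3.09 at 1.5 h. The array on slide 1 was the highest of the 3 at 1.5 h, and none came near the 0 h range. Its rise was 24.0-fold (log2 4.58 ± 0.59, limma adjusted p = 0.0405 with 12 arrays and 0.0134 with 11; log2 3.91 with normexp). Nr4a2 (NURR1) had -2.62, -3.59 and -2.99 at 0 h and -0.79, -1.78 and -0.93 at 1.5 h, and rose 3.73-fold (log2 1.90 ± 0.33, limma adjusted p = 0.04 with 11 arrays; log2 0.92 with normexp); a second Nr4a2 probe with a log2 difference of 1.51 did not pass. Nr4a3, the remaining member, did not pass the filter on dim probes.

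Of 13 AP-1 and ATF genes, 6 rose in the 11-array fit and Atf3 in both. Every 1.5 h array was above every 0 h array for 8 and below for none, beside 14.7% and 11% of coding probes. The list median was 1.46, against 0.17 for all probes, and 1.45 within slide 1. Atf3, a stress-induced factor, had signals of -0.62, -0.30 and 0.32 at 0 h and 3.72, 3.74 and 3.79 at 1.5 h. The arrays at 1.5 h were nearly equal on the 2 slides, and Atf3 rose 15.4-fold (log2 3.95 ± 0.41, limma adjusted p = 0.00955 with 12 arrays). Fos had -1.38, -2.73 and -0.97 at 0 h and 1.31, 1.92 and 1.29 at 1.5 h. One 0 h array, replicate 2, was lower than the other 0 h arrays, and still the gap between the groups exceeded their spread: Fos rose 9.17-fold (log2 3.20 ± 0.47, limma adjusted p = 0.0239 with 11 arrays; log2 2.34 with normexp). Its relative Fosb had -0.81, -0.89 and -1.104 and 0.51, 0.61 and 0.45, with little spread within either group, and rose 2.75-fold (log2 1.46 ± 0.17, limma adjusted p = 0.0155 with 11 arrays).

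Among the JUN partners, Jun had 0.77, 0.93 and 1.45 at 0 h and 3.60, 2.70 and 2.56 at 1.5 h, a 3.75-fold rise (log2 1.91 ± 0.30, limma adjusted p = 0.0296 with 11 arrays). The slide 1 array of 1.5 h was the highest. Junb had 2.95, 1.84 and 2.44 at 0 h and 4.67, 4.17 and 4.25 at 1.5 h and rose 3.88-fold (limma adjusted p = 0.049 with 11 arrays). Jund, which is expressed in resting cells, had a log2 difference of 1.02 that did not pass, and so had Fosl2 (2.13), although their groups did not overlap. The small MAF protein Maff, which pairs with NRF2 and AP-1 proteins, had -0.06, -0.73 and -0.04 at 0 h and 2.87, 1.68 and 2.40 at 1.5 h and rose 6.05-fold (log2 2.60 ± 0.36, limma adjusted p = 0.0179 with 11 arrays). Batf, a factor with roles in lymphocytes, had a log2 difference of -0.31 and did not pass, and Fosl1 was not well above background on any of the 6 arrays.

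The promoters of 3 of these genes are printed because many immediate early genes are targets of CREB, which binds the letters TGACG or their complement CGTCA. Each stretch is the 250 bases before a start site in RefSeq, GRCm38.p6, read along the gene, with CGTCA on either strand in capitals.
Nr4a1 promoter, chr15:101266596-101266845, plus strand: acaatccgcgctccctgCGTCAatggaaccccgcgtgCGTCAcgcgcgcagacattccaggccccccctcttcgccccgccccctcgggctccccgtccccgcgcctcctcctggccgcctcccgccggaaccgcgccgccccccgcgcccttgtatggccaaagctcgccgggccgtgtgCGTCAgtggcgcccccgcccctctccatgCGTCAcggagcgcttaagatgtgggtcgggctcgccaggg
Fos promoter, chr12:85473640-85473889, plus strand: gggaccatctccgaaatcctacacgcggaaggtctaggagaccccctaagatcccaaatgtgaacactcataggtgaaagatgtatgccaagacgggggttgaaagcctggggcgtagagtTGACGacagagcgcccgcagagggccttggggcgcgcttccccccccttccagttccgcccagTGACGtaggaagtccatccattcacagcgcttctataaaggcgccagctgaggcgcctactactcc
Atf3 promoter, chr1:191183334-191183583, minus strand: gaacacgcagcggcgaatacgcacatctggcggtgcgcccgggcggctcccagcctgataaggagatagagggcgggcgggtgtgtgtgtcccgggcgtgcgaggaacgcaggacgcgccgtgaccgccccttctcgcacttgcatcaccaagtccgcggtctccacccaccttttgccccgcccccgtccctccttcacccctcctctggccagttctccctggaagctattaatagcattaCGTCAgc
Nr4a1 held 4 matches, Fos 2 and Atf3 1. Among the 32851 promoters, 0.14% held at least 4, 3.9% at least 2 and 17.77% at least 1. Of 76 coding genes that rose with 11 arrays and had a promoter in the table, 28 (36.84%) held a match at any start site, beside 19.79% of all 27025 genes in the table. The full palindrome TGACGTCA, which contains this motif on both strands, was in 4 of the 76 (5.26%, against 1.77% of genes). All genes in the table include genes not on the array or not past the filter. A gene with several start sites also has more sequence in which a match can fall. These shares are descriptions, with no test.

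**Figure D2:**
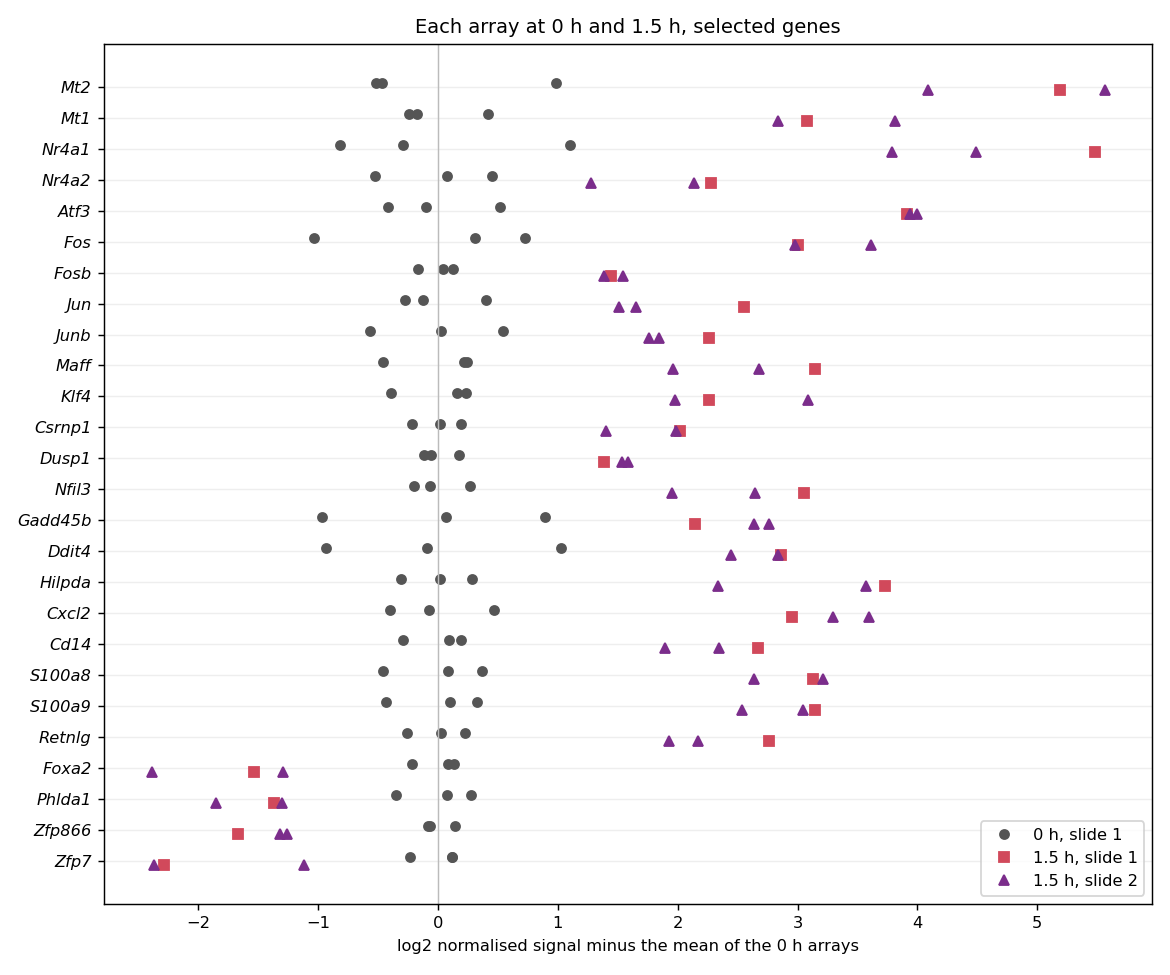
Log2 normalised signal of each array minus the mean of the 3 arrays at 0 h (horizontal axis) for 26 genes (rows); circles are 0 h arrays, the square is the 1.5 h array on the same slide and triangles are the 1.5 h arrays on slide 2. In every row the 1.5 h arrays of both slides lie on the same side of the 0 h arrays, for example Atf3 at 3.72 to 3.80 in log2 signal against -0.62 to 0.32 at 0 h.

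Of 29 genes of the EGR, KLF, MYC and related list, 4 rose with 11 arrays. Every 1.5 h array was above the 0 h arrays for 17 and below for none, beside 14.7% and 11% of coding probes. The list median was 0.62 (0.72 within slide 1, and 0.38 with normexp). Klf4, a zinc finger factor that opposes proliferation in epithelia, had -3.14, -3.68 and -3.06 at 0 h and -1.03, -1.32 and -0.21 at 1.5 h and rose 5.42-fold (log2 2.44 ± 0.33, limma adjusted p = 0.0179 with 11 arrays; log2 0.97 with normexp). Sik1, a CREB-induced kinase that restrains CREB coactivators, had -0.85, -1.99 and -1.24 and 0.69, 0.41 and 0.71 and rose 3.90-fold (limma adjusted p = 0.0359 with 11 arrays). The nuclear protein Csrnp1, an early gene of AXIN signalling, had 1.80, 1.57 and 1.98 and 3.81, 3.19 and 3.77, on every array above the 0 h range, and rose 3.49-fold (limma adjusted p = 0.0155 with 11 arrays). Egr2 was not well above background on any 0 h array and was on all 3 at 1.5 h, which gives at least a 2.46-fold rise (limma adjusted p = 0.0179 with 11 arrays); with normexp background correction its log2 difference was 0.16 and did not pass.

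Several genes long used to mark the hours after hepatectomy did not pass in either fit. Myc had 0.57, 0.12 and -0.07 at 0 h and 1.90, 1.35 and 1.61 at 1.5 h, groups that did not overlap, with a log2 difference of 1.41 ± 0.30 (limma adjusted p = 0.0718 with 11 arrays). Egr1 had -1.24, -0.58 and 1.097 and 0.99, 1.09 and -0.09. Here the groups overlapped, since 0 h replicate 3 was above every 1.5 h array, and the difference was 0.90 ± 0.53 (limma adjusted p = 0.311 with 11 arrays). For Ier2, a small nuclear immediate early protein, the values were 2.56, 2.55 and 3.15 and 4.40, 4.68 and 3.32 (log2 1.38, limma adjusted p = 0.0903 with 11 arrays). Zfp36 (tristetraprolin), which destabilises cytokine mRNAs, had a log2 difference of 0.77, and Btg2, an antiproliferative gene, was not well above background on any 0 h array. Hes1, the NOTCH target, stood at 0.03.

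Feedback on MAP kinase signalling was measured by 18 genes. Every 1.5 h array was above the 0 h arrays for 5 of them, beside 14.7% of coding probes. The list median was 0.65 (0.46 within slide 1, and 0.04 with normexp). With 11 arrays 2 of the 18 genes rose. Both were phosphatases that switch MAP kinases off. Dusp1 had 3.53, 3.29 and 3.24 at 0 h and 4.74, 4.89 and 4.94 at 1.5 h, with a spread within each group far smaller than the gap, and rose 2.84-fold (log2 1.50 ± 0.19, limma adjusted p = 0.0169 with 11 arrays). Dusp8, which prefers JNK and p38, had -1.08, -1.93 and -1.16 and 0.68, -0.30 and 1.06 and rose 3.66-fold (limma adjusted p = 0.0498 with 11 arrays). The ERK phosphatase Dusp6 (0.85) and the receptor inhibitors Spry4 (0.71), Spry1 (-0.21) and Errfi1 (-0.03) had log2 differences that did not pass.

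Of 12 measured neutrophil markers 4 rose with 11 arrays and 2 of these with 12, and none fell. Every 1.5 h array was above every 0 h array for 6, beside 14.7% of coding probes. The list median was 1.03 (1.27 within slide 1). With normexp it was 0.24, beside -0.13 for coding probes. S100a8, a subunit of calprotectin, had -2.32, -1.50 and -1.78 at 0 h and 1.27, 0.77 and 1.35 at 1.5 h and rose 7.96-fold (log2 2.99 ± 0.29, limma adjusted p = 0.00907 with 12 arrays; log2 2.40 with normexp). Its partner S100a9 had -0.81, -0.05 and -0.27 and 2.77, 2.16 and 2.67 and rose 7.503-fold (log2 2.91 ± 0.30, limma adjusted p = 0.00955 with 12 arrays). In both genes the groups stood apart with the 1.5 h arrays of the 2 slides close together, and S100a9 was the 1 gene of the 7 that also passed with slide as a fixed block (limma adjusted p = 0.0409). Retnlg, a resistin-like protein of neutrophils, rose 4.89-fold from -2.44, -1.95 and -2.16 to 0.58, -0.25 and -0.01 (limma adjusted p = 0.0134 with 11 arrays; log2 1.49 with normexp). The receptor for the neutrophil growth factor G-CSF, Csf3r, had -4.30, -3.83 and -4.56 and -3.07, -2.87 and -2.94 and rose 2.41-fold (limma adjusted p = 0.0317 with 11 arrays); with normexp its log2 difference was 0.21 and did not pass.

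Granule proteins of neutrophils did not pass: Mpo had a log2 difference of 1.02, Camp 0.89, Elane 0.25 and Mmp9 0.31, while Ngp was not well above background on any 0 h array and Mmp8 on none of the 6 arrays. The summed linear signal of the 12 markers, in units of the 75th percentile, was 4.13 to 5.94 at 0 h and 11.9 to 16.4 at 1.5 h, with S100a9 the brightest. Blood left in the tissue and cells within it cannot be told apart in whole liver, and their part in the result was not tested; the summed signal of 4 erythroid markers was 38.1 to 41.4 at 0 h and 40.4 to 49 at 1.5 h. That of 6 platelet markers was 12.1 to 15.7 at 0 h and 13.3, 25.4 and 26 at 1.5 h, and that of 11 lymphocyte markers 29 to 39.8 and 35.2, 55.8 and 57.3; in both lists the 1.5 h array on slide 1 lay within the 0 h range and the pair on slide 2 above it.

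Among 9 genes of neutrophil chemokines and receptors, Cxcl2 rose in both fits. Every 1.5 h array was above the 0 h arrays for 4, beside 14.7% of coding probes. The list median was 0.92 (0.12 within slide 1, and -0.03 with normexp). Cxcl2, which binds the receptor CXCR2 and draws neutrophils, was not well above background on any 0 h array and had -3.94, -3.30 and -3.60 at 1.5 h, all 3 well above background. It was at least 2.34-fold higher (limma adjusted p = 0.00907 with 12 arrays and 0.00362 with 11). With normexp its log2 difference was 0.20 and did not pass. Cxcl1 and Cxcl5, ligands of the same receptor, had log2 differences of 1.08 and 1.08, which did not pass. The promoter of Cxcl2 is shown because the chemokine is a known target of NF-kB; capitals mark 2 overlapping matches to the NF-kB consensus, 1 on each strand.
Cxcl2 promoter, chr5:90903649-90903898, plus strand, RefSeq, GRCm38.p6: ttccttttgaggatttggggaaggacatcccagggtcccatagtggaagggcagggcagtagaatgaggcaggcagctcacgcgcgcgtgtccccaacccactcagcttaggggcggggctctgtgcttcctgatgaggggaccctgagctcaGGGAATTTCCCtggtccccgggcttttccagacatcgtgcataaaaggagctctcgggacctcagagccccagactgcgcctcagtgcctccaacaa
At least 1 such match was in 7.25% of the 32851 promoters and 2 or more in 1.03%. By gene, 15 of the 76 that rose held one (19.74%), beside 8.23% of all genes in the table. The limits given above for the CGTCA shares hold for these too.

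Of 28 NF-kB targets and inflammatory cytokines 2 rose with 11 arrays. Every 1.5 h array was above the 0 h arrays for 14 and below for 1, beside 14.7% and 11% of coding probes. The list median was 0.49 (0.53 within slide 1, and 0.19 with normexp). Cd14, the coreceptor for endotoxin, had -1.33, -1.43 and -1.82 at 0 h and 1.15, 0.37 and 0.82 at 1.5 h and rose 4.94-fold (log2 2.30 ± 0.39, limma adjusted p = 0.0359 with 11 arrays, 0.63 with 12). Nfkbiz, an atypical IkB protein that acts as a nuclear cofactor, had -0.16, -0.04 and 0.18 and 1.59, 1.50 and 2.32 and rose 3.51-fold (limma adjusted p = 0.0359 with 11 arrays); its 3 probes, at log2 1.67 to 1.81, all passed. Nfkbia, the classical inhibitor IkB alpha and itself an NF-kB target, stood at 0.23 and did not pass. The cytokine Il1b had -0.70, -1.25 and -1.21 and 0.33, 0.37 and 0.45, groups that did not overlap, and just missed the threshold (log2 1.44 ± 0.27, limma adjusted p = 0.0545 with 11 arrays). Tnf, with -4.29, -4.18 and -4.17 and -3.48, -3.82 and -3.14, had a log2 difference of 0.74 (limma adjusted p = 0.142 with 11 arrays).

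IL-6 and its signalling were measured by 22 genes, of which Junb, described above, rose. Il6 itself had -2.60, 0.11 and -2.37 at 0 h and 0.68, 0.08 and -2.09 at 1.5 h. The arrays were widely spread within both times and overlapped, and the log2 difference was 1.18 ± 0.92 (limma adjusted p = 0.434 with 11 arrays). Socs3, the STAT3-induced inhibitor of the IL-6 receptor, had 1.75, 0.17 and 0.34 and 2.82, 2.13 and 3.38, groups that did not overlap, and a difference of 2.02 ± 0.54 (limma adjusted p = 0.107 with 11 arrays). The receptor chain Il6ra (1.33) had every 1.5 h array above the 0 h arrays without passing, while Stat3 (-0.01), Il6st (-0.19) and Osmr (0.10) were near 0. Cish, an inhibitor of growth hormone signalling through STAT5, had -1.27 with every 1.5 h array below the 0 h arrays, and did not pass. The list median was 0.31 (0.1 with normexp).

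None of 24 acute phase genes passed in either fit, and the list median was 0.12 (0.33 within slide 1). Saa1 had 5.82, 6.07 and 5.13 at 0 h and 6.19, 6.24 and 4.92 at 1.5 h, with a log2 difference of 0.11 ± 0.45. The groups overlapped. For Lcn2, a siderophore-binding protein, the values were -1.04, 0.65 and -1.11 and 1.58, -0.18 and 0.21 (log2 1.04 ± 0.51, limma adjusted p = 0.239 with 11 arrays). Hp (0.17), Orm1 (0.20) and the fibrinogen chains Fga, Fgb and Fgg (0.03, 0.13 and 0.08) differed little.

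Among 16 genes of the GADD45 family, p53 targets and growth arrest, 2 rose with 11 arrays. Every 1.5 h array was above the 0 h arrays for 7, beside 14.7% of coding probes. The list median was 0.45 (0.11 with normexp). Gadd45b, a stress sensor that binds MKK7 and curbs JNK, had -1.94, -0.07 and -0.90 at 0 h and 1.17, 1.66 and 1.79 at 1.5 h and rose 5.71-fold (log2 2.51 ± 0.41, limma adjusted p = 0.0334 with 11 arrays). Its relatives Gadd45g (2.28) and Gadd45a (1.67) had non-overlapping groups and did not pass. Trp53inp1, a p53-induced nuclear protein, had 2.42, 2.17 and 1.93 and 3.95, 3.05 and 3.62 and rose 2.58-fold (limma adjusted p = 0.0498 with 11 arrays). The CDK inhibitor Cdkn1a (p21) had -1.94, -1.83 and -1.82 and -1.002, -1.04 and -0.45, a log2 difference of 1.04 ± 0.39 that did not pass.

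Of the growth factors, receptors and binding proteins (20 measured) Hbegf alone rose. Hbegf, a ligand of the EGF receptor, had -2.73, -3.04 and -3.08 at 0 h and -2.04, -1.98 and -2.04 at 1.5 h and rose 1.90-fold (log2 0.93 ± 0.16, limma adjusted p = 0.0398 with 11 arrays); with normexp the difference was 0.25 and did not pass. Igfbp1, a secreted binding protein of the insulin-like growth factors, had 6.27, 6.18 and 4.84 and 7.78, 7.29 and 8.54. Its groups did not overlap, yet 0 h replicate 3 lay apart from the other 0 h arrays, and the difference of 2.10 ± 0.48 did not pass (limma adjusted p = 0.082 with 11 arrays). Hgf (0.38), its receptor Met (0.01), Areg (0.47), Tgfa (0.05) and Egfr (0.01) did not pass either.

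In the TGF-beta and activin list (20 measured) Skil rose and none fell. Skil (SNON), which binds SMAD proteins and blunts their activity, had -0.17, 0.03 and 0.12 at 0 h and 1.52, 1.07 and 1.63 at 1.5 h and rose 2.66-fold (limma adjusted p = 0.0186 with 11 arrays), with both of its probes past the threshold. Inhbe, an activin chain made in hepatocytes, had a log2 difference of -1.91, and Inhba and Smad7 had -1.06 and -0.87. In all 3 every 1.5 h array was below the 0 h arrays, and none passed.

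Hormone, energy and stress signals gave further single genes. Hilpda, a lipid droplet protein induced by hypoxia, had -1.58, -1.25 and -0.99 at 0 h and 2.46, 1.06 and 2.30 at 1.5 h and rose 9.27-fold (log2 3.21 ± 0.36, limma adjusted p = 0.0123 with 11 arrays, 0.0583 with 12; log2 2.62 with normexp). Ddit4 (REDD1), which restrains mTORC1, had 1.40, 2.51 and 0.55 and 4.35, 3.93 and 4.32 and rose 6.56-fold (limma adjusted p = 0.0278 with 11 arrays). It was the 1 riser among 19 genes of the ATF4 and amino acid stress list, whose median was -0.16; Atf4, Ddit3, Asns and Trib3 stood at -0.29, -0.45, 0.26 and 0.04. Of 26 genes of gluconeogenesis and glucose handling Sgk1, a kinase induced by glucocorticoids and insulin, rose 2.58-fold (limma adjusted p = 0.0299 with 11 arrays). Pdk4, which holds back pyruvate oxidation, had a log2 difference of 2.21 and did not pass, and the glucose-producing enzymes Pck1 (0.40) and G6pc (0.75) did not pass.

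Among 19 measured clock genes 2 rose with 11 arrays and none fell, and the median was 0.11. Every 1.5 h array was above the 0 h arrays for 5 and below for 5, beside 14.7% and 11% of coding probes. Nfil3 (E4BP4), a repressor of D-box genes, had 0.03, 0.37 and -0.10 at 0 h and 3.15, 2.05 and 2.74 at 1.5 h and rose 5.85-fold (log2 2.55 ± 0.36, limma adjusted p = 0.0202 with 11 arrays). The clock repressor Cry2 had 2.47, 2.43 and 2.40 and 3.50, 3.31 and 3.19, the former nearly equal among arrays, and rose 1.86-fold (limma adjusted p = 0.0469 with 11 arrays). Nr1d1 (REV-ERB alpha), a repressor of Arntl, had a log2 difference of -1.33 with every array below, Per1 had 0.47 and Dbp -0.38, and none of these passed.

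A further 5 genes outside the lists were among the 20 coding genes with the largest rises with 11 arrays. Apold1, an endothelial early gene, had -2.41, -2.70 and -2.72 at 0 h and 0.86, -0.55 and 0.71 at 1.5 h and rose 7.75-fold (limma adjusted p = 0.0179 with 11 arrays; log2 2.07 with normexp). Cenpu, a kinetochore component, had -4.24, -4.57 and -5.37 and -2.22, 0.66 and -1.47; all its 1.5 h arrays were higher but widely spread, and it rose 13.1-fold (log2 3.71 ± 0.66, limma adjusted p = 0.0421 with 11 arrays, 0.309 with 12; log2 1.47 with normexp). The other 3 were not well above background on any 0 h array. Ch25h, which makes 25-hydroxycholesterol, was at least 4.7-fold higher (limma adjusted p = 0.0202 with 11 arrays; log2 0.60 with normexp). Rab30, a GTPase of the Golgi, was at least 2.26-fold higher and Tiparp, an ADP-ribosyltransferase induced by the aryl hydrocarbon receptor, at least 2.31-fold, but with normexp their log2 differences were -0.08 and -0.10, below 0.

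Fewer transcripts fell. Foxa2, a pioneer factor of the hepatocyte, had 0.36, 0.70 and 0.65 at 0 h and -0.97, -0.73 and -1.82 at 1.5 h. The groups were clear of each other on both slides, and Foxa2 fell 3.34-fold (log2 -1.74 ± 0.28, limma adjusted p = 0.0334 with 11 arrays, 0.147 with 12). It was the 1 called gene of 15 hepatocyte transcription factors (median -0.23, against 0.07 for coding probes). Every 1.5 h array was below the 0 h arrays for 4 of these and above for 1, beside 11% and 14.7% of coding probes. Hnf4a, Cebpa and Onecut1 stood at -0.23, -0.28 and -0.94. Phlda1, a pleckstrin homology protein and itself an early response gene in other cells, had 3.17, 2.75 and 3.37 and 1.73, 1.79 and 1.24 and fell 2.84-fold (log2 -1.51 ± 0.24, limma adjusted p = 0.0317 with 11 arrays). Noa1, a mitochondrial GTPase, had -0.84, -0.87 and -0.25 and -2.24, -2.36 and -2.42 and fell 3.21-fold (limma adjusted p = 0.0469 with 11 arrays). Rnaseh2c, a subunit of RNase H2, fell 2.73-fold, the ubiquitin ligase Rnf145 of sterol metabolism 2.50-fold and Mettl14, a subunit of the m6A RNA methyltransferase, 1.85-fold (limma adjusted p = 0.0421, 0.0375 and 0.0469 with 11 arrays). The remaining named coding genes that fell outside the zinc finger group were Tmem219 (2.43-fold), LTO1 (2.55-fold), Obi1 (1.80-fold) and 2610044O15Rik8 (1.92-fold).

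Zinc finger genes with a Zfp number made up 9 of the 19 named coding genes that fell. They were Zfp7, Zfp39, Zfp160, Zfp235, Zfp280b, Zfp780b, Zfp790, Zfp809 and Zfp866, and Zfp92 was the 1 gene of this kind that rose. Zfp866 had -0.25, -0.46 and -0.47 at 0 h and -2.06, -1.71 and -1.65 at 1.5 h, the 1.5 h array of slide 1 being the lowest, and fell 2.66-fold (log2 -1.41 ± 0.17, limma adjusted p = 0.0155 with 11 arrays). Zfp7 had -2.60, -2.96 and -2.60 and -5.00, -3.83 and -5.08 and fell 3.79-fold (limma adjusted p = 0.035 with 11 arrays; log2 -0.87 with normexp). Zfp809, a KRAB zinc finger protein that silences retroviral DNA, fell 2.51-fold (limma adjusted p = 0.0334 with 11 arrays). The group was singled out after these values were seen. Of its 306 genes on the array past the filter, 34% had every 1.5 h array below the 0 h arrays and 5.88% every array above, beside 11% and 14.7% of coding probes, and the median was -0.25 (-0.34 within slide 1; by probe, -0.26, -0.35 with normexp and -0.39 with quantile normalization). Many such genes are similar in sequence, and their probes may share targets.

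The lists of cell division and of hepatocyte function held no call at this time, apart from members named above. Genes outside the lists are not covered by this statement. None of 16 G1 cyclins and CDKs, 21 DNA replication genes, 19 mitosis genes or 24 ribosome biogenesis genes passed in either fit, with medians of -0.07, 0, 0.44 and -0.08. Ccnd1, the cyclin of the G1 phase, had a log2 difference of -0.24, Pcna 0.36 and Mki67 0.28. The mitosis median of 0.44 stood at 0.29 within slide 1 and 0.01 with normexp. None passed among 15 heat shock proteins, 14 endoplasmic reticulum chaperones, 12 NRF2 targets or 17 interferon genes (medians -0.06, -0.15, -0.16 and -0.24).

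None passed among 22 cholesterol genes, 22 genes of fatty acid synthesis and lipid droplets, 18 of fatty acid oxidation, 18 of bile acid metabolism, 16 cytochrome P450 genes, 17 secreted proteins or 16 genes of urea and amino acid metabolism, with medians between -0.18 and 0.26. Cyp7a1, which opens the classical route from cholesterol to bile acids, had 2.59, 3.71 and 2.58 at 0 h and 2.88, 2.68 and 2.08 at 1.5 h (log2 -0.42 ± 0.48), overlapping groups. The members with the smallest p in the 11-array fit were Stard4 (cholesterol transfer, log2 -0.999), Insig2 (a brake on sterol synthesis, 1.34), Hadha (0.55), the bile acid importer Slc10a1 (-1.28), Cyp3a41a (-1.15), Serpina1a (0.46) and Tat (tyrosine breakdown, 0.71), none past the threshold. Alb had 8.12, 8.38 and 8.18 and 8.17, 8.91 and 9.33, with the pair of 1.5 h arrays on slide 2 the highest and the one on slide 1 within the 0 h range. All 17 secreted-protein markers of the hepatocyte were well above background on the 6 arrays, and their median of 0.26 was -0.04 with quantile normalization.

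None of 14 macrophage and Kupffer cell markers passed (median 0.24), and their summed signal was 49.7 to 84.4 at 0 h and 61.9 to 104 at 1.5 h; the Kupffer cell lectin Clec4f had a log2 difference of 0.42. Endothelial markers (13 measured, median -0.04) summed to 40.8 to 44.8 and 37.2 to 45.1. None of 11 lymphocyte, 13 stellate cell, 7 bile duct, 4 erythroid, 6 platelet, 7 adipose or 8 pancreas markers passed; the smallest p in the 11-array fit belonged, in 6 of these lists, to Ptprc, Timp1, Spp1, Itgb3, Lep and Ins2, of which Ptprc, Lep and Ins2 were not well above background on any 0 h array. The adipose markers had a median of 0.99 (0.35 within slide 1, and -0.12 with normexp), beside 1.03 for the neutrophil list. Of these 7 markers, 4 were not well above background on any 0 h array. Whether any of these lists differed from the neutrophil list was not tested.

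Dim probes were higher on the 1.5 h arrays of slide 2. All kept probes were split by their mean signal on the 0 h arrays into 4 groups of equal size. The same 0 h mean is subtracted in the differences, so the grouping is not independent of them. Noise in that mean alone would raise the dimmest group and lower the brightest, and its part was not tested. In the dimmest of these, 51.6% of it noncoding, the median difference to the 0 h mean was 0.08 on 1.5 h replicate 1, 0.94 on replicate 2 and 1.02 on replicate 3. For the brightest (17.2% noncoding) it was -0.01, -0.14 and -0.12. Noncoding probes as a whole had medians of 0.02, 0.50 and 0.55 on the 3 arrays, and coding probes 0.03, 0.05 and 0.11. The median over all noncoding probes, 0.36, was 0.12 with quantile normalization and -0.18 with normexp. Slide and time cannot be told apart on replicates 2 and 3. Counts of dim transcripts higher at 1.5 h are therefore given with this shift in view. Of the 158 that rose with 11 arrays, 71 (32 coding, 39 noncoding) were not well above background on any 0 h array. The same held for 4672 of all 31168 kept probes (2178 coding, 2494 noncoding). Such probes passed the filter, at least 3 of 12 arrays, only through arrays taken after 0 h, those of slide 2 among them.

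**Figure D3:**
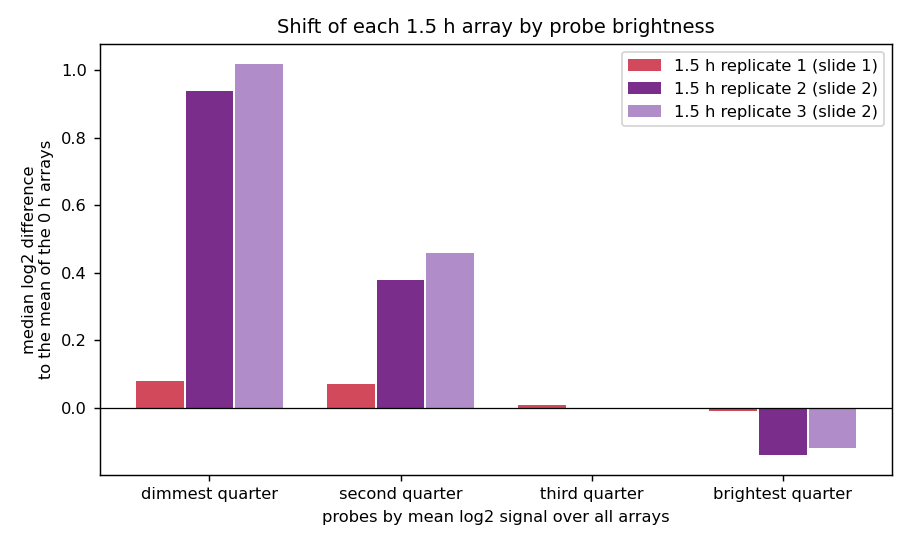
Median log2 difference of each 1.5 h array to the mean of the 3 arrays at 0 h (vertical axis) for probes in 4 groups (horizontal axis). Bars are single arrays. The groups are of equal size and were formed by the mean of the 0 h arrays, not of all arrays as the axis label says. That same mean is subtracted in the differences. The 1.5 h array on slide 1 stays within 0.08 of 0, while both arrays on slide 2 are higher by 0.94 and 1.02 in the dimmest group and lower by 0.14 and 0.12 in the brightest.

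Of the noncoding transcripts 53 rose with 11 arrays (0.47% of 11274) and 7 fell (0.0621%), and AK085884 rose in both fits. AK085884, known here by its cDNA name, had -2.48, -2.61 and -2.77 at 0 h and 0.97, -0.23 and 1.20 at 1.5 h, with all 6 arrays well above background. The 1.5 h replicate 2 array was the lowest of its group and still far above the 0 h arrays: the rise was 9.64-fold (log2 3.27 ± 0.42, limma adjusted p = 0.0405 with 12 arrays and 0.0155 with 11; log2 2.09 with normexp). BC060148 was not well above background at 0 h and at least 2.8-fold higher at 1.5 h (limma adjusted p = 0.0179 with 11 arrays), but log2 0.16 with normexp. The next 6 by fold change, uc007gzq, AK017765, AK043377, AK016274, uc007tvc and AK089257, were likewise not well above background on any 0 h array, and with normexp their differences were 0.04, -0.18, -0.18, -0.003, -0.09 and 0.05.

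AY039009 fell furthest among noncoding transcripts well above background in both groups. It had -1.32, -0.80 and -1.38 at 0 h and -2.89, -3.31 and -3.96 at 1.5 h and fell 4.67-fold (log2 -2.22 ± 0.30, limma adjusted p = 0.0179 with 11 arrays; log2 -1.36 with normexp). uc008pbs had -1.85, -2.13 and -2.05 and -4.002, -3.53 and -3.91, and fell 3.49-fold (limma adjusted p = 0.0155 with 11 arrays; log2 -1.05 with normexp). AK014664 fell 2.33-fold, AK044183 2.89-fold and AK019943 2.43-fold (limma adjusted p = 0.0278, 0.0179 and 0.0447 with 11 arrays; log2 -0.63 and -0.50 with normexp for the latter 2). For uc008ich and uc007clk no 1.5 h array was well above background, which gives falls of at least 2.11-fold and 2.34-fold; with normexp their log2 differences were -0.79 and -0.61, which are smaller falls than these bounds and did not pass.

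Well-known long noncoding RNAs did not pass. Of 12 measured, 2 had every 1.5 h array above and 1 every array below the 0 h arrays. The shares over all noncoding probes were 19.2% and 6.12%. Neat1, the scaffold of paraspeckles, had 0.88, 1.79 and 0.09 at 0 h and 0.34, -0.12 and -1.57 at 1.5 h (log2 -1.37 ± 0.57, limma adjusted p = 0.193 with 11 arrays). Its arrays were widely spread at both times and overlapped. Malat1 had 0.07, 0.34 and 0.07 and 0.06, 1.45 and -0.21 and a difference of 0.27 ± 0.38. The 2 Tug1 probes went opposite ways, at log2 -0.65 and 0.68, and neither passed.

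Values at the later times are given beside those at 1.5 h, and all of these comparisons share the 3 arrays at 0 h. The 24 h values are those of 2 arrays. No array of 12 h or 24 h shared a slide with the 0 h arrays, so slide and time cannot be told apart in these values. The 12 h replicate 3 array and both 24 h arrays used lay on slide 3. Their median background was 99 to 112 units, against 45 to 48 at 0 h. Log2 differences to 0 h for Nr4a1 were 4.58 at 1.5 h, -0.31 at 12 h and -1.45 at 24 h. Likewise Jun had 1.91, -0.24 and -1.34, and Dusp1 1.50, -0.85 and -1.36. By contrast Mt2 had 4.95, 6.93 and 5.74, and S100a8 2.99, 4.93 and 4.85. Cd14 stood at 2.30, 7.01 and 3.39. Of the genes that fell, Foxa2 had -1.74, -0.90 and -0.16, Zfp866 -1.41, -0.35 and 0.46, and Noa1 -1.69, -2.58 and -2.93.

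**Figure D4:**
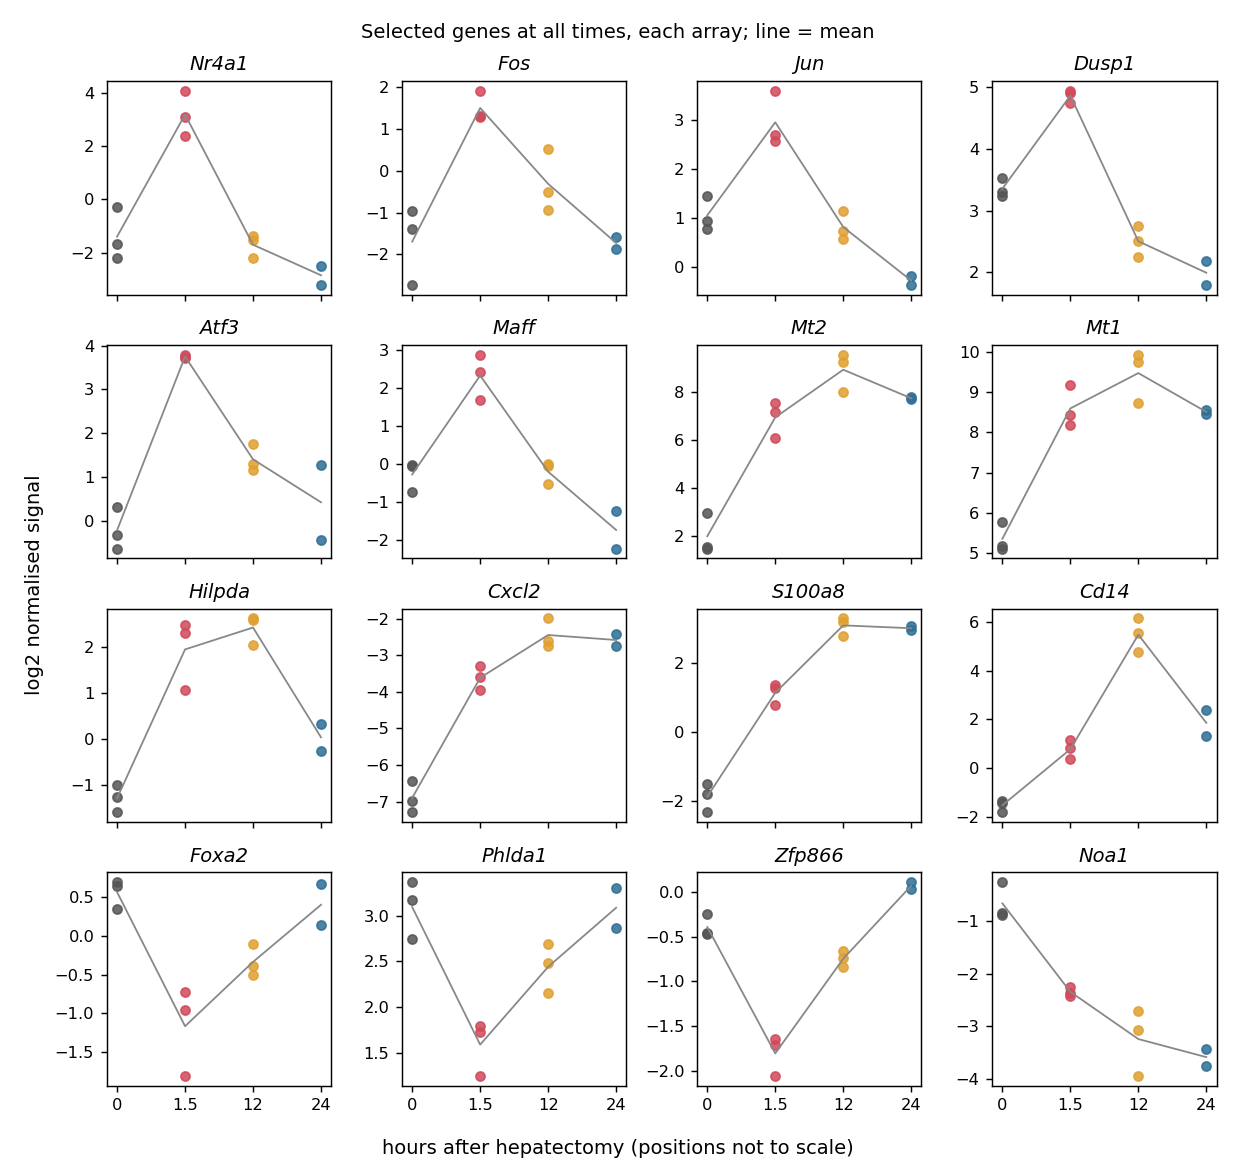
Log2 normalised signal (vertical axes, each gene on its own scale) of 16 genes on each array at 0, 1.5, 12 and 24 h after hepatectomy (horizontal axis); points are arrays and lines join the means, with 24 h replicate 2 left out. Nr4a1, Jun and Dusp1 are highest at 1.5 h, Mt2, Cd14 and S100a8 are higher at 12 h than at 1.5 h, and Foxa2, Phlda1 and Zfp866 are lowest at 1.5 h. No array of 12 h or 24 h shared a slide with the 0 h arrays.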

How the data were processed

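Total RNA of 12 mouse livers was hybridised to 1-colour (Cy3) Agilent arrays. The deposited scanner output gives, per the file headers, a processed intensity (background-subtracted, linear scale) for each of 39448 spots, made with Agilent Feature Extraction 10.5.1.1 per the submitters' processing notes. The authors' deposited log2 table, whose normalization is not given in the sources used here, served as an alternative. Outlier spots and controls were dropped, which left 37246 probes, and spots of a probe were averaged. Values are log2 intensity minus the array's 75th percentile; probes well above background on at least 3 of 12 arrays were kept. One mean per time point was fitted with limma 3.58.1 (R 4.3.3; two-sided, Benjamini-Hochberg, threshold 0.05) to 12 arrays and, without the 24 h replicate 2 array, to 11; the code was tested on simulated data. A group with no array well above background was set, array by array, to at least the lowest signal called well above background for the "at least" folds. P-values set a difference against the scatter among replicates, pooled over all time points in the fit. Replicates at 1.5 h lay on slides 1 and 2, and those at 12 h on slides 2 and 3. Without a slide block, slide and mouse therefore both enter that scatter, and slide also enters the difference between 1.5 h and 0 h.

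Probes with an NM accession counted as coding; RefSeq names (GRCm38.p6) covered 21963 coding and 253 noncoding probes. Promoters are RefSeq's. The named genes were every probe past the threshold with 12 arrays, the 20 coding genes and 8 noncoding transcripts at each end with 11, up to 6 called members of each list or its lowest p, and 34 marker genes. Others, such as unpassed list members given as examples and the Zfp group, were chosen after their values were seen. Members and lists were chosen with earlier results of these data known. Alternatives were other background corrections, normalizations and filters, slide or replicate as a block, array weights, and leaving out each array. Some results are not reported here.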

Additional observations from a re-analysis of the deposited data

How the results depend on the processing

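Against 7 probes higher and 0 lower with all 12 arrays, the count was 2 higher with normexp background correction, 16 higher and 4 lower with the authors' deposited values, 15 and 2 among probes called above background by all 12 arrays, 11 and 2 for those so on 3 of the 6 compared arrays, 15 higher with robust moderation and a trend, 0 with only the 0 h and 1.5 h arrays (6700 probes with an unadjusted p under 0.05), 64 and 10 with the 0 h, 1.5 h and 12 h arrays, 9814 and 3080 with array weights (which gave 1.5 h replicate 1 a weight of 0.329 and 24 h replicate 2 a weight of 0.0408), 10 and 7 with slide as a fixed block, and 48 and 17 with slide as a random block. Leaving out arrays gave 0 to 6444 higher and 0 to 1371 lower, 158 and 27 without 24 h replicate 2. With that array also left out, the counts were 5 higher and 3 lower with slide as a fixed block and, in settings added after the data were seen, 96 and 53 with quantile normalization, 7 higher with normexp (Mt2, Nr4a1, Atf3, Mt1, S100a8, S100a9 and Maff), 47 and 6 with slide as a random block, and 99 and 32 for probes well above background on all 6 compared arrays. The replicate block gave 0 probes with 12 arrays and 44 higher and 8 lower with 11. Same-numbered 0 h and 1.5 h arrays deviated from their group means with correlations of -0.081, -0.012 and 0.04. With so few arrays, and the 1.5 h arrays split between slides, these values cannot show whether same-numbered samples were paired.

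The median log2 difference of all probes, 0.17, was -0.14 with normexp (12 and 11 arrays), 0.03 with quantile normalization (12 and 11), -0.02 with the authors' values, 0.03 among probes above background on all 12 arrays and 0.04 on the 6 compared arrays, 0.03 with slide as a fixed block (12 and 11) and 0.02 as a random block, and 0.12 to 0.22 without single arrays. Under normexp 6 dim transcripts turned: Rab30 (-0.081), Tiparp (-0.1), AK017765 (-0.18), AK043377 (-0.181), AK016274 (-0.003) and uc007tvc (-0.089). The cause was not tested. Signal near background limits these and the other transcripts seen only at 1.5 h.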

Other observations

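Beyond the lists, single genes are named here after their values were seen; they rose with 11 arrays, and none was among the 7 probes that passed with normexp. Msln (mesothelin), a surface protein, rose 5.30-fold (limma adjusted p = 0.0155 with 11 arrays). Upk1b, a uroplakin, had log2 signals of -3.02, -2.99 and -2.85 at 0 h and -2.05, -1.65 and -1.64 at 1.5 h and rose 2.25-fold (limma adjusted p = 0.0323 with 11 arrays). Upk3b rose 3.13-fold, the tight junction gene Cldn15 3.00-fold and the growth factor binding protein Igfbp6 3.24-fold. These 5 lay above the 0 h range on every 1.5 h array, and none of the lists above holds them. They were picked from a longer set of genes drawn up after the values were seen. The other members of that set are not given here, so the 5 do not stand for it. Krt19, also in that set, is in the bile duct list, in which no gene passed.

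The BH3-only death gene Bcl2l11 (BIM) rose on each of its 3 probes, at log2 1.91, 1.91 and 2.05. The neutrophil decoy receptor Il1r2 rose 3.48-fold, and the small nucleolar RNA host Snhg10, a noncoding transcript, rose 2.59-fold (limma adjusted p = 0.049 and 0.026 with 11 arrays).

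Olfactory receptor genes, 611 of which passed the filter, had a median log2 difference of 0.60, which was 0.10 on the 1.5 h array of slide 1 and 0.87 on the pair of slide 2; by probe it was 0.32 with quantile normalization and -0.15 with normexp.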
